A study of Rattus norvegicus with 172 samples.

Results

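Of 9 genes named as sinusoidal and vascular endothelial markers of rat liver, 8 were measured: the scavenger receptors Stab1 and Stab2, the hyaluronan receptor Lyve1, the lectin Clec4g, the vascular endothelial growth factor (VEGF) receptors Kdr and Flt1, the angiopoietin receptor Tek, and the BMP and TGF-beta co-receptor Eng. They were chosen by name, not by their values, as the rows of the gene count tables whose Ensembl identifier carries one of these symbols in the authors' differential expression tables. That rule gave 8 of 32883 genes, and Pecam1 was not analysed here. Each gene had 1 row in both count tables (Stab1 ENSRNOG00000018434, Stab2 ENSRNOG00000038948, Lyve1 ENSRNOG00000026902, Clec4g ENSRNOG00000054013, Kdr ENSRNOG00000046829, Flt1 ENSRNOG00000000940, Tek ENSRNOG00000008587, Eng ENSRNOG00000050190). All 8 passed the filter on low counts in both experiments. Their levels across the dose groups serve as a view of how much endothelial RNA each liver sample held.

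The study compared livers of male Fischer 344 rats given furan, a volatile compound that is toxic to the liver, or its methylated derivative 3-methylfuran for 90 days. The labels call each group a diet, with doses in mg per kg of body weight and day (mg/kg below). In the furan experiment there were 8 rats on the control diet, 8 each at 0.03 and 0.12, and 7 each at 0.5 and 2.0 mg/kg. The 3-methylfuran experiment had its own control diet and doses of 0.02, 0.075 and 1.0 mg/kg, with 8 rats in each of its 4 groups. All rats were males of this 1 strain with no other treatment or allele named. RNA came from a frozen piece of whole liver, so every value is an average over all the cell types in it. Furan libraries were made with the Illumina Stranded mRNA prep kit and 3-methylfuran libraries with the TruSeq Stranded mRNA protocol, so compound, experiment and kit cannot be told apart.

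The liver sinusoid is lined by a specialised endothelium with open pores and no complete basement membrane. These cells clear waste molecules from blood through scavenger and mannose receptors, bind hyaluronan, and carry the VEGF and angiopoietin receptors found on endothelium throughout the body. Stab2 and Clec4g are regarded as markers of sinusoidal endothelium. Stab1 and Lyve1 are also found on some macrophages and, for Lyve1, on lymphatic endothelium, while Eng is also made by other non-parenchymal cells, so no single gene of the set stands for 1 cell type alone.

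Summed over the runs of a rat, libraries held 11.41 to 27.66 M gene-assigned counts in the furan experiment and 11.08 to 50.05 M in the 3-methylfuran experiment. Hepatocyte marker genes summed to between 198334 and 226817 CPM (counts scaled to library size) in the 8 furan controls, where the 8 endothelial genes summed to between 129 and 396 CPM. The scaling used the trimmed mean of M-values (TMM), a correction for library composition. Since gene lengths were not used, levels are compared for 1 gene between rats and not between genes. In the furan control group rat 004 stood apart: it was the lowest of the 8 controls for all 8 genes, so results that rest on the furan controls are given with and without that rat. Its library held 16.3 M counts, its TMM factor was 0.894 against 0.917 to 0.963 in the other controls, and its macrophage markers summed to 550.6 CPM, within the 492 to 911 of the group. The part of these in its low values was not tested.

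RefSeq's promoter windows on the GRCr8 assembly (250 bases before to 50 after each annotated start) were at hand for 7 of the 9 named genes, not for Tek or Pecam1. The bases upstream of the start are shown for Clec4g and Kdr because these are the genes of the set that passed the test of furan at its highest dose. They number 250 for Clec4g and 218 for Kdr, where the gene start used to cut the stretch falls earlier in the window. Clec4g lies on chr12:6582914-6583163, minus strand, and the TATAAA match upstream of the start is in capitals; the other match in its window, on the other strand, lies past the start and is not shown. Kdr lies on chr14:32571813-32572030, plus strand, and its only match to GGGCGG (a GC box), which is on the other strand, is in capitals.
Clec4g: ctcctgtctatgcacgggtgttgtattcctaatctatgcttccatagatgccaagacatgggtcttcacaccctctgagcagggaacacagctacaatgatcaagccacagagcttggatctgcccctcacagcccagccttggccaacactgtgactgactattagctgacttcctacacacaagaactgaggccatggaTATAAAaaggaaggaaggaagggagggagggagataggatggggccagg
Kdr: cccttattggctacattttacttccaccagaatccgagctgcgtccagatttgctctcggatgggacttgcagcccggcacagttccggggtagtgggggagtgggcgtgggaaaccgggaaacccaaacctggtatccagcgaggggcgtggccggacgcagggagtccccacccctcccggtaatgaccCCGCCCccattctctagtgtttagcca
TATAAA was in the 300-base windows of Clec4g and Flt1 and in 14.2% of all 33469 windows, searched on both strands. GGGCGG was in those of Kdr and Flt1 and in 33.1% of windows. The ETS core CAGGAAG was in the window of Lyve1 alone of the 7, against 12.5% of all windows, and CCGGAAG (8.75%) and the GATA site AGATAA (11.6%) were in none of the 7. TATAAA and GGGCGG were added to the search after the windows had been read, and a match of letters is a description, not a site.

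**Figure D1:**
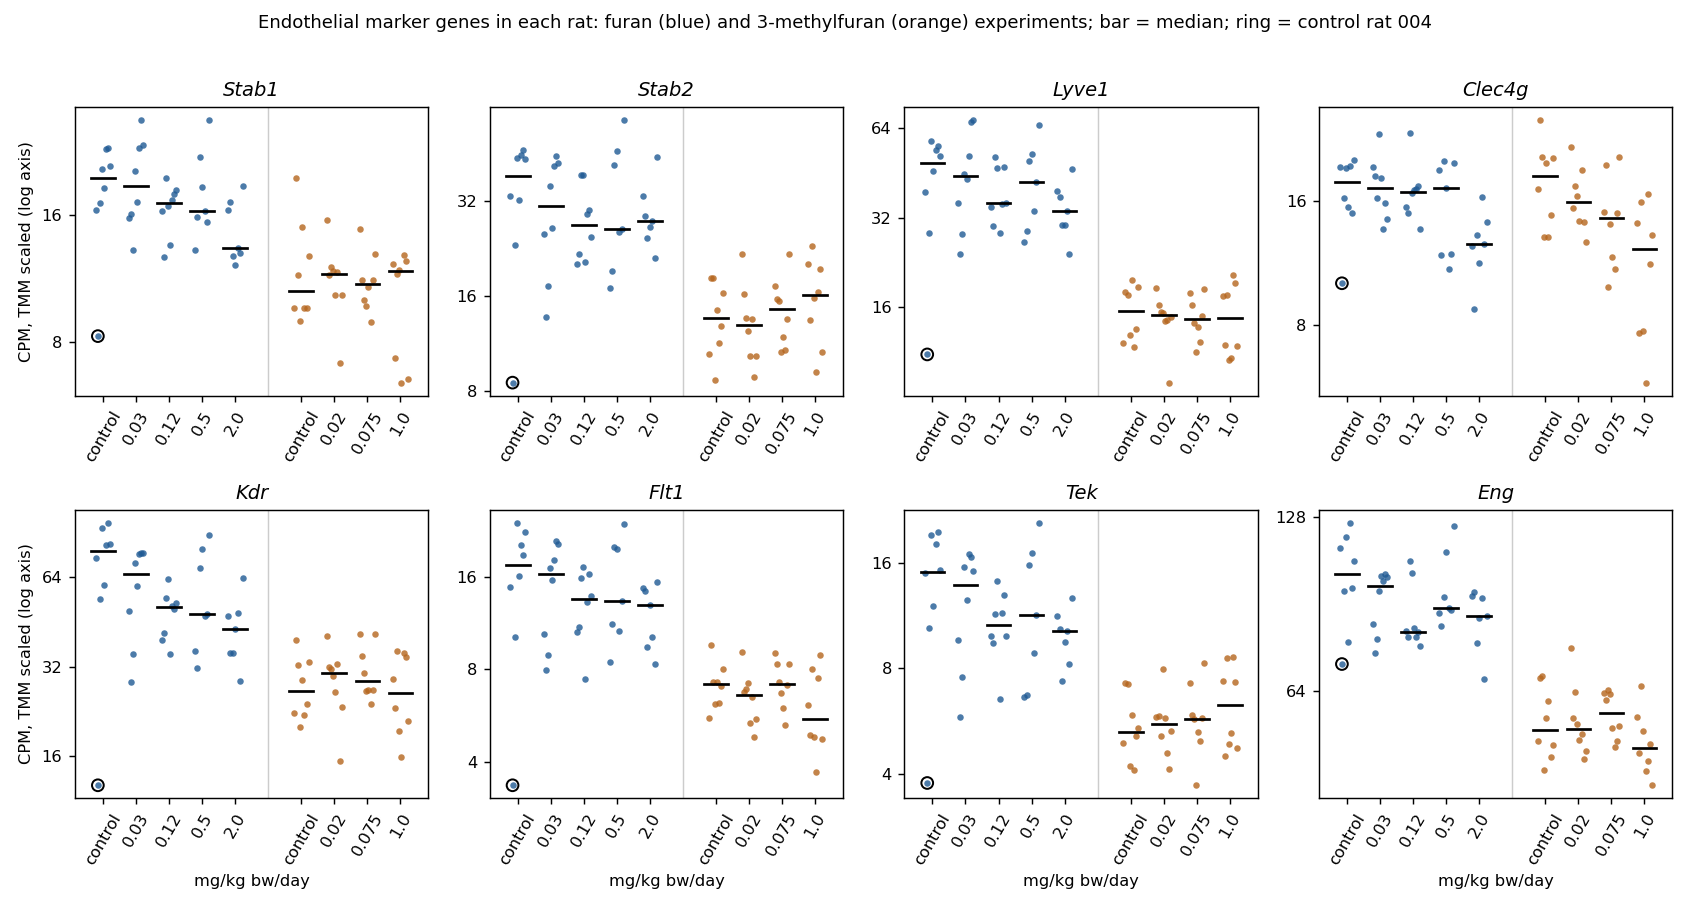
TMM-scaled CPM (log axis) of each endothelial gene in every rat by dose in mg/kg; each point is a rat, bars are medians, blue is the furan experiment and orange the 3-methylfuran experiment, and the ring marks control rat 004. The ringed rat is the lowest furan control in all 8 panels, and treated and control ranges overlap in every panel.

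At 2.0 mg/kg furan, Clec4g and Kdr were lower than in controls and the other 6 genes did not pass the test. That is 2 of 8 genes called, both lower, in a comparison where 46.5% of the 12727 genes tested were called and 22.5% were called lower, so the share of the set called lower was close to that of all genes, and the share called in either direction was below it. All 8 estimates lay below 0, from -0.69 to -0.23 with a median log2 fold change of -0.37, while the median over all genes was 0.021. Estimates below 0 also numbered 8 of 8 at 0.5 mg/kg furan (median -0.077) and 7 of 8 at 0.12 mg/kg (median -0.26), with none called. The 8 genes share the same controls and varied together from rat to rat, so a common sign is not 8 separate results. In bulk liver fewer endothelial cells and less of this RNA per cell cannot be told apart, and whether the estimates lie below 0 also depends on the library scaling (next paragraph). At 1.0 mg/kg 3-methylfuran only Clec4g of the 8 was called, again lower, where 43.6% of 11930 genes were called and 22.5% called lower. The estimates there ran from -0.65 to 0.21 with a median of -0.086. Calls are those of edgeR's quasi-likelihood test with Benjamini-Hochberg adjustment over all genes tested, at an adjusted p under 0.05.

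These calls depend on 1 control rat and on the scaling. Without control rat 004, 6 of the 8 genes were called lower at 2.0 mg/kg furan: Kdr, Tek, Flt1, Clec4g, Stab1 and Eng. With libraries scaled by their total counts instead of TMM, none of the 8 was called at that dose (1 with upper-quartile scaling, and 2 with DESeq2's size factors or its test), the median of the 8 moved to 0.033, and Eng, Lyve1, Stab1 and Stab2 changed sign. That scaling also moved the median over all genes tested to 0.42 and the calls over all genes from 3054 higher and 2869 lower to 8678 higher and 773 lower. TMM factors were 1.02 to 1.405 at 2.0 mg/kg furan and 0.894 to 0.963 in controls, so the way libraries are scaled goes with dose. Relative to the all-gene median, all 8 estimates were on the low side at this dose, with the highest of them at 0.16 under total counts. A change of scaling moves all genes of a rat alike. That this position held with both scalings is therefore not a separate check.

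Clec4g, also called LSECtin, is a C-type lectin of sinusoidal endothelium. In furan controls it ranged from 10.1 to 20.2 CPM with a median of 17.8, and at 2.0 mg/kg furan from 8.73 to 16.4 with a median of 12.6. All 7 treated rats lay under the control median and 1 lay under every control, so the ranges overlapped. Its estimate on the log2 scale was -0.41 ± 0.15 (SE), with an adjusted p of 0.019 in edgeR's test. It was -0.50 without rat 004 and -0.041 with total-count scaling (adjusted p of 0.797). Leaving out treated rat 082 or 085 gave adjusted p values of 0.0738 and 0.0505. The medians at 0.03, 0.12 and 0.5 mg/kg furan were 17.2, 16.9 and 17.2 CPM, close to each other and to the control median.

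In the 3-methylfuran experiment Clec4g ranged from 13.1 to 25.1 CPM in controls (median 18.4), and from 5.80 to 16.7 at 1.0 mg/kg (median 12.2). All 8 treated rats were under the control median and 4 were under every control. The log2 fold change was -0.65 ± 0.19 (SE), a level 0.638 times that of controls, with an adjusted p of 0.0064 in edgeR's test. Medians fell in the order of dose, with 15.9 CPM at 0.02 and 14.5 CPM at 0.075 mg/kg between the ends, though neighbouring groups overlapped. The call held in each of the 16 fits that left out 1 rat (adjusted p from 0.00237 to 0.0199), and with total-count scaling the estimate was -0.40 with an adjusted p of 0.0708.

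The stabilins Stab1 and Stab2 are scavenger receptors that remove modified proteins, and in the case of Stab2 hyaluronan, from blood. Stab1 in furan controls ranged from 8.25 to 23.1 CPM (median 19.6) and at 2.0 mg/kg furan from 12.2 to 18.8 (median 13.4). All 7 treated rats lay under the control median, but none lay under rat 004, and the log2 fold change of -0.32 ± 0.16 (SE) had an adjusted p of 0.106 in edgeR's test. Without rat 004 the estimate was -0.43 with an adjusted p of 0.0122. Medians at the furan doses between were 18.8, 17.1 and 16.4 CPM in rising order of dose, with overlapping ranges. With 3-methylfuran at 1.0 mg/kg Stab1 ranged from 6.39 to 12.9 CPM (median 11.8) against 8.94 to 19.6 in controls (median 10.6). Of these 8 treated rats 3 were lower than every control, while the other 5 lay above the control median, and the log2 fold change was -0.25 ± 0.17 (SE, adjusted p of 0.233 in edgeR's test).

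Stab2 in furan controls ranged from 8.52 to 46.7 CPM with a median of 38.4, and at 2.0 mg/kg furan from 21.2 to 44.4 with a median of 27.8. The treated range lay inside the control range, which rat 004 alone stretched downward. On the log2 scale the change was -0.23 ± 0.28 (SE) with an adjusted p of 0.525 in edgeR's test, and -0.38 without rat 004 (adjusted p of 0.222). In the 3-methylfuran experiment it went the other way, from 8.69 to 18.3 CPM in controls (median 13.7) to 9.22 to 23.1 at 1.0 mg/kg (median 16.2). This log2 fold change, 0.21 ± 0.20 (SE), did not pass the test, with an adjusted p of 0.413 in edgeR's test. Medians at 0.03, 0.12 and 0.5 mg/kg furan were 31.0, 26.9 and 26.2 CPM.

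Lyve1 binds hyaluronan on sinusoidal and lymphatic endothelium. In furan controls it ranged from 11.1 to 57.9 CPM (median 48.9), and at 2.0 mg/kg from 24.2 to 46.8 (median 33.6). All 7 treated rats were under the control median, while rat 004 was under all of them. The log2 fold change was -0.32 ± 0.25 (SE), with an adjusted p of 0.304 in edgeR's test, and -0.47 without rat 004 (adjusted p of 0.0706). With 3-methylfuran at 1.0 mg/kg the range of 10.6 to 20.5 CPM (median 14.7) covered and went past that of the controls, 11.7 to 19.7 (median 15.5), with 2 rats under and 1 over every control, and the estimate was -0.050 ± 0.15 (SE, adjusted p of 0.820 in edgeR's test). Its 95% interval, from -0.35 to 0.26, bounds the change at this dose. The furan medians at 0.03, 0.12 and 0.5 mg/kg were 44.2, 35.8 and 42.1 CPM, in no order of dose.

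Kdr, the main signalling receptor for VEGF-A, had the lowest estimate of the 8 at 2.0 mg/kg furan. Controls ranged from 12.8 to 97.3 CPM with a median of 78.2, and treated rats from 28.6 to 63.5 with a median of 42.9. All 7 treated rats were under both the median and the mean of the controls, and none was under rat 004. The log2 fold change was -0.69 ± 0.27 (SE), a level 0.619 times that of controls, with an adjusted p of 0.0372 in edgeR's test. It was -0.85 ± 0.22 (SE) without rat 004 (adjusted p of 0.002), and -0.31 with total-count scaling (adjusted p of 0.313). Upper-quartile scaling (adjusted p of 0.053) and the absence of a low-count filter (adjusted p of 0.0714) also ended the call, and Kdr was called in 6 of the 15 fits that left out 1 rat.

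Kdr medians in the furan experiment stood in order of dose, 78.2, 65.6, 50.6, 48.03 and 42.9 CPM from control to 2.0 mg/kg. Each group overlapped its neighbours, and the fitted estimates did not stand in that order. They were -0.23, -0.53, -0.29 and -0.69 from 0.03 to 2.0 mg/kg. The estimate at 0.12 mg/kg, -0.53 ± 0.26 (SE), had an adjusted p of 0.372 in edgeR's test. With all rats the linear trend of Kdr with furan dose was not called (adjusted p of 0.0856 in edgeR's test). In the 3-methylfuran experiment Kdr ranged from 20.1 to 39.2 CPM in controls (median 26.4) and from 15.9 to 36.2 at 1.0 mg/kg (median 26.1). Of the 8 treated rats 2 were lower than every control and none was higher than every control. The estimate there was -0.053 ± 0.18 (SE), with a 95% interval of -0.43 to 0.32.

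Flt1 binds VEGF-A tightly and limits what reaches Kdr. It ranged from 3.37 to 23.9 CPM in furan controls (median 17.5) and from 8.34 to 15.4 at 2.0 mg/kg (median 12.9). Every treated rat was under the control median, and the estimate of -0.41 ± 0.27 (SE) had an adjusted p of 0.21 in edgeR's test, or -0.57 with an adjusted p of 0.0415 without rat 004. The doses of 0.03, 0.12 and 0.5 mg/kg furan had medians of 16.3, 13.6 and 13.4 CPM, with overlapping ranges. With 3-methylfuran at 1.0 mg/kg Flt1 ranged from 3.72 to 8.91 CPM (median 5.52) against 5.56 to 9.60 in controls (median 7.19). Of these 8 rats 4 were lower than every control, and the estimate was -0.23 ± 0.15 (SE, adjusted p of 0.229 in edgeR's test).

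Tek, the receptor of angiopoietins that keeps endothelium quiescent, ranged from 3.78 to 19.5 CPM in furan controls (median 15.1) and from 7.35 to 12.7 at 2.0 mg/kg (median 10.2). Every treated rat lay under the control mean, and the log2 fold change was -0.51 ± 0.26 (SE, adjusted p of 0.104 in edgeR's test). Without rat 004 it was -0.66 with an adjusted p of 0.0186. Medians at 0.03, 0.12 and 0.5 mg/kg were 13.8, 10.7 and 11.4 CPM. With 3-methylfuran Tek ranged from 4.50 to 8.64 CPM at 1.0 mg/kg (median 6.28) against 4.12 to 7.27 in controls (median 5.27), and 4 of 8 treated rats lay above every control. The estimate of 0.21 ± 0.16 (SE) had an adjusted p of 0.301 in edgeR's test, and under total-count scaling it became 0.46 with an adjusted p of 0.0134, the sole call of the 8 there.

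Eng (endoglin) presents BMP9 and TGF-beta to their receptors on endothelium. Furan controls ranged from 71.3 to 125 CPM (median 102) and the 2.0 mg/kg rats from 67.2 to 94.9 (median 86.3). Of the treated rats 1 lay under every control and all 7 lay under the control median. The log2 fold change was -0.24 ± 0.11 (SE) with an adjusted p of 0.0624 in edgeR's test, then -0.30 with an adjusted p of 0.0138 without rat 004, and 0.16 with total-count scaling (adjusted p of 0.218). At 0.03, 0.12 and 0.5 mg/kg furan the medians were 97.4, 81.1 and 89.004 CPM. In the 3-methylfuran experiment controls ranged from 46.8 to 68.1 CPM (median 54.9) and the 1.0 mg/kg rats from 44.02 to 65.4 (median 51.0), with an estimate of -0.12 ± 0.088 (SE, adjusted p of 0.285 in edgeR's test).

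**Figure D2:**
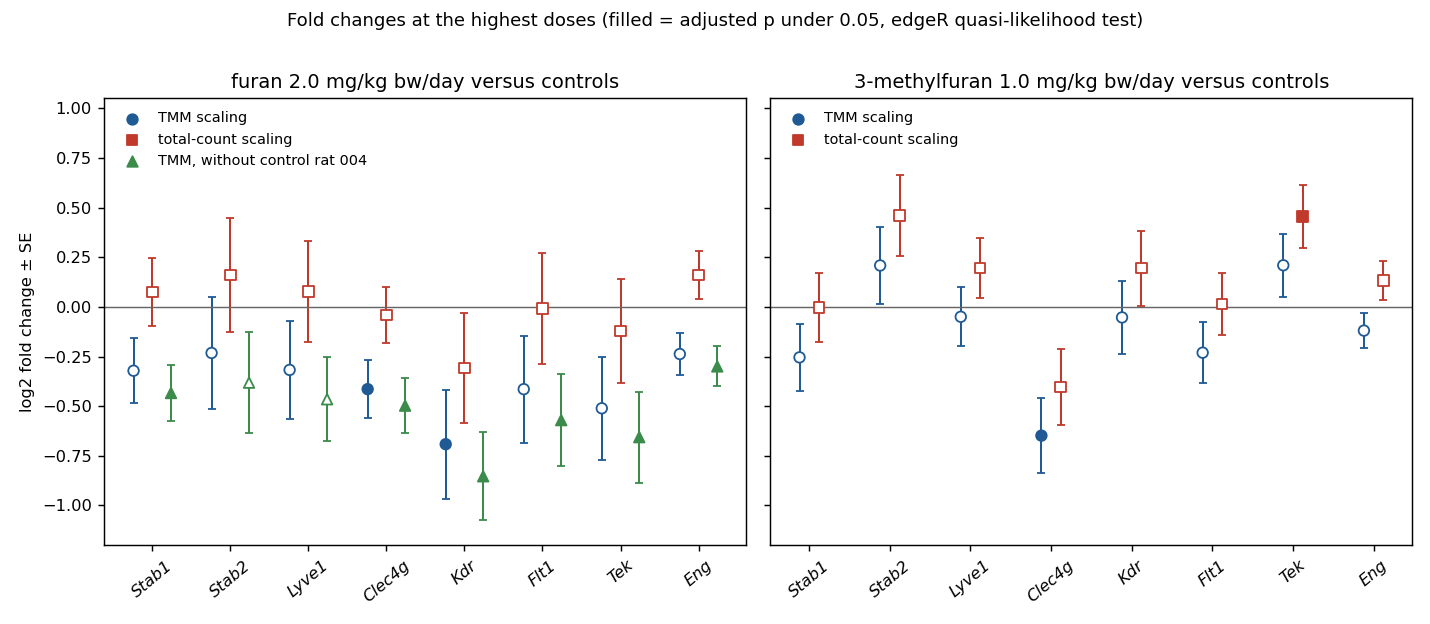
Log2 fold change ± SE of each endothelial gene at the highest dose of each compound, with TMM scaling (circles), total-count scaling (squares) and, for furan, TMM without control rat 004 (triangles); filled symbols have an adjusted p under 0.05 in edgeR's quasi-likelihood test. At 2.0 mg/kg furan 2 circles, no square and 6 triangles are filled, and at 1.0 mg/kg 3-methylfuran the filled symbols are the Clec4g circle and the Tek square.

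At the lower doses none of the 8 genes was called. The background was 0.0707% of genes called at 0.03 mg/kg, 1.94% at 0.12 mg/kg and 3.16% at 0.5 mg/kg furan, and 0.0335% at 0.02 mg/kg and 1.37% at 0.075 mg/kg 3-methylfuran. Of these 5 comparisons 1 held a member with an unadjusted p under 0.05, Eng at 0.12 mg/kg furan (-0.22 ± 0.10, SE; adjusted p of 0.301 in edgeR's test), and DESeq2 and the other scalings also called none. Leaving out rat 004 gave no call at the 3 lower furan doses. With dose as a linear term, Clec4g was the 1 gene of the 8 called in each experiment, lower with dose. Its slope was -0.22 ± 0.061 log2 units per mg/kg for furan (adjusted p of 0.0024), where 52% of genes were called, and -0.53 ± 0.16 for 3-methylfuran (adjusted p of 0.0075), where 48% were called, both in edgeR's test. Under total-count scaling neither slope of Clec4g was called; Eng was then called higher with furan dose (0.13 ± 0.050, SE; adjusted p of 0.0178), and Tek (0.43) and Stab2 (0.46) higher with 3-methylfuran dose. Without rat 004, Stab1 and Kdr joined Clec4g in the furan trend.

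Set side by side, the highest doses were 2.0 mg/kg for furan and 1.0 mg/kg for 3-methylfuran, so the difference between their effects is also one of dose, kit and experiment. In a fit of all 70 rats the effect at 2.0 mg/kg furan minus that at 1.0 mg/kg 3-methylfuran was called for none of the 8 genes in edgeR's test, against 7.23% of 12941 genes. Tek had the lowest difference, -0.73 ± 0.32 (SE), with an unadjusted p of 0.0267 and an adjusted p of 0.155; without rat 004 it was -0.87 with an adjusted p of 0.049. The difference for Kdr was -0.65 with a 95% interval of -1.33 to 0.028. For Clec4g it was 0.22 with an interval of -0.26 to 0.71, so a difference of either sign lies inside it.

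The sum over the 8 genes gives 1 value for each liver and is described here with no test. In furan controls it ranged from 129 to 396 CPM with a median of 345, and the medians at 0.03, 0.12, 0.5 and 2.0 mg/kg were 309, 250, 257 and 248. At 2.0 mg/kg the 7 rats lay between 183 and 302 CPM, within the control range but under its median. Under total-count scaling the same 7 rats lay between 198 and 362 with a median of 324, next to a control median of 325. In the 3-methylfuran experiment the 4 medians were 153, 157, 152 and 147 CPM from control to 1.0 mg/kg, and the ranges overlapped throughout. Sums were lower in the untreated rats of this experiment (121 to 205 CPM) than in 7 of the 8 furan controls, a gap that goes with the kit and the experiment.

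**Figure D3:**
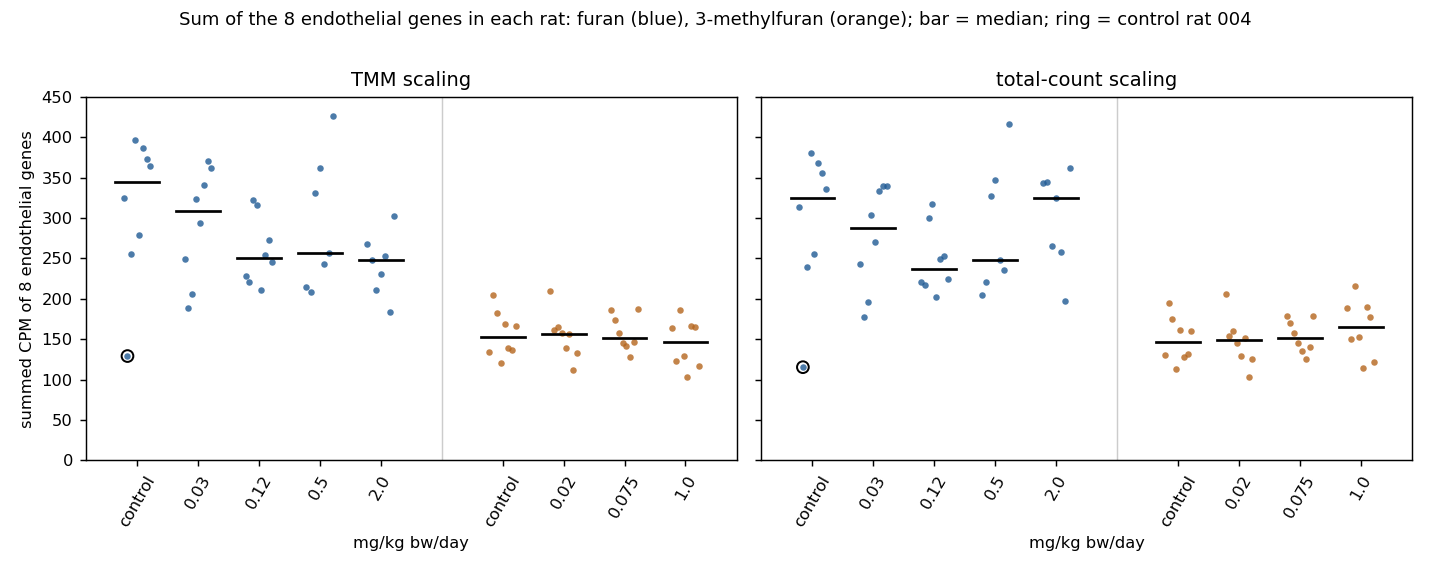
Sum of the 8 endothelial genes in each rat, in CPM scaled by TMM (left) and by total counts (right), by dose in mg/kg body weight per day; points are rats, bars are medians, and the ring is control rat 004. The median at 2.0 mg/kg furan lies at 248 CPM on the left and at 324 on the right, against control medians of 345 and 325.

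Each gene was expressed as its log2 CPM minus the mean log2 CPM of the other 7 genes of the same rat, a measure in which library scaling cancels. It was chosen after the values had been seen and is given with no test. For Clec4g in the 3-methylfuran experiment this value ranged from 0.080 to 0.49 in controls and from -0.77 to 0.29 at 1.0 mg/kg. It was under every control in 7 of 8 rats at that dose, and in 5 of 8 at 0.075 mg/kg. At 2.0 mg/kg furan Clec4g spread from -1.61 to -0.59, against -1.47 to 0.036 in controls, with 1 of 7 rats under every control and a mean shift of -0.12.

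For Kdr in the furan experiment 7 of the 8 controls lay between 1.261 and 1.62, while rat 004 was at 0.42. The 7 rats at 2.0 mg/kg lay between 0.71 and 1.257, and the 8 rats at 0.12 mg/kg between 0.90 and 1.26034. Both groups were thus under those 7 controls, so this position was not limited to the highest dose. Groups at 0.03 and 0.5 mg/kg reached up to 1.37 and 1.35. Mean shifts of Kdr were -0.11, -0.22, -0.15 and -0.28 from 0.03 to 2.0 mg/kg, in no order of dose. In the 3-methylfuran experiment Kdr was on the other side at 0.075 mg/kg, where 7 of 8 rats exceeded every control. Stab2 and Tek had a mean shift of 0.38 each at 1.0 mg/kg 3-methylfuran, with 5 and 6 of 8 rats above every control. Mean shifts of Eng and Lyve1 ran from -0.10 to 0.19 over all dose groups.

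**Figure D4:**
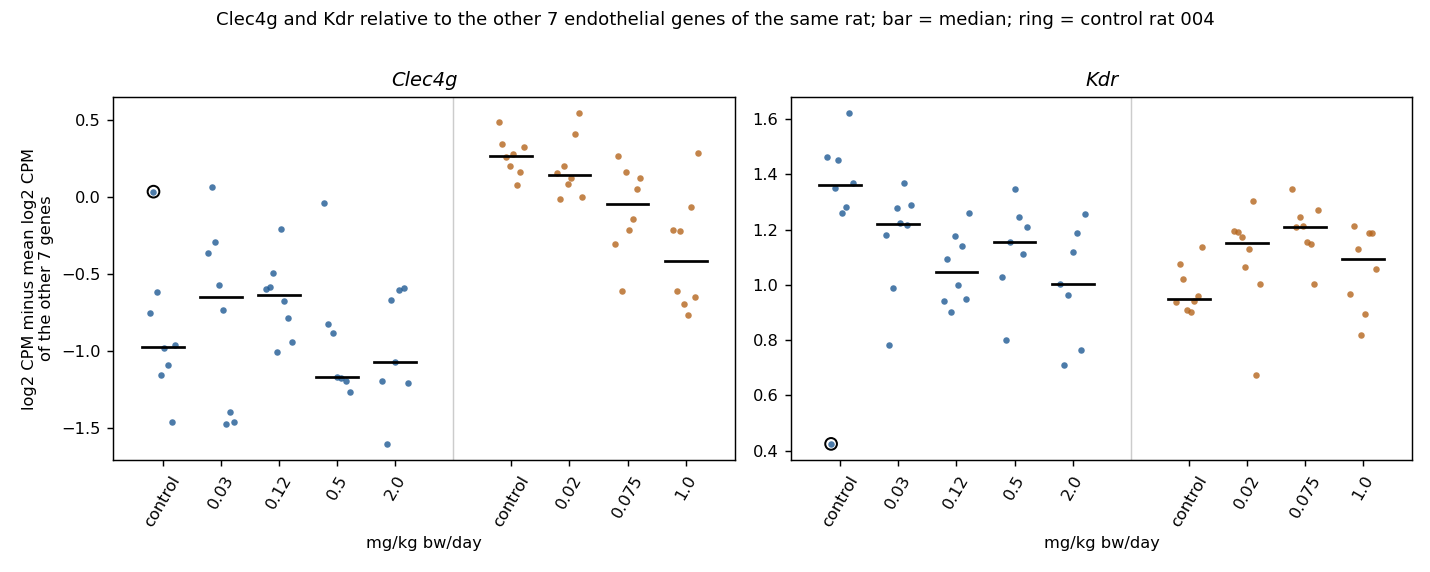
Log2 CPM of Clec4g (left) and Kdr (right) minus the mean log2 CPM of the other 7 endothelial genes in the same rat, by dose in mg/kg body weight per day; points are rats, bars are medians and the ring is control rat 004. Clec4g stands lower within the set across the 3-methylfuran groups, from a control median of 0.27 to -0.42 at 1.0 mg/kg, and Kdr is lower at 2.0 mg/kg furan (median 1.00) than in controls (median 1.36).

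The 8 genes rose and fell together from rat to rat. With the mean of each dose group removed, Pearson's r between pairs of them ran from 0.34 to 0.97 with a median of 0.87 over the 38 rats of the furan experiment, and from 0.39 to 0.92 with a median of 0.73 over the 32 rats of the 3-methylfuran experiment. These are descriptions over 28 pairs that share libraries and scaling, with no test. Stab2 followed the other 7 genes most closely in the furan experiment (r of 0.97, Spearman's rho of 0.95), and Kdr did in the 3-methylfuran experiment (r of 0.95, rho of 0.94). Clec4g followed them least with furan (r of 0.44, rho of 0.30, and r of 0.29 without the 2 rats farthest from the median, 004 and 022). Eng followed them least with 3-methylfuran (r of 0.60, rho of 0.61).

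Among 10943 other genes with a mean of at least 1 CPM in both experiments, those most like the set by the smaller of the 2 values of r were Flt4, Fcgr2b, Mrc1, Pde2a, Adgrf5, Msr1, Plxnd1, Gpr182, Oit3 and Mmrn2, with values from 0.89 down to 0.84. The median over all genes was -0.14 and the 99th percentile 0.54. Flt4 is the third VEGF receptor, Fcgr2b and Mrc1 are the Fc and mannose receptors by which sinusoidal endothelium takes up immune complexes and glycoproteins, Gpr182 and Plxnd1 are endothelial receptors, and Msr1 is a scavenger receptor also found on macrophages. Plxnd1 was called lower at 2.0 mg/kg furan (-0.39 ± 0.17, SE; adjusted p of 0.0494) and Adgrf5 lower at 1.0 mg/kg 3-methylfuran (-0.40 ± 0.15, SE; adjusted p of 0.0352), while the other 8 of the 10 passed edgeR's test at neither dose.

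**Figure D5:**
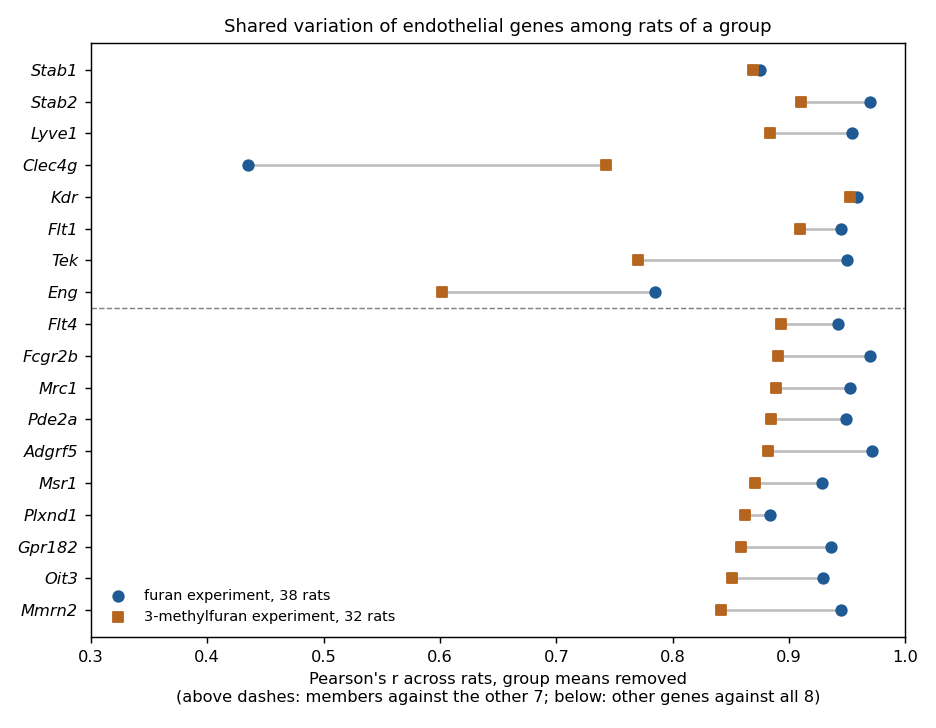
Pearson's r across rats after removing group means, for each endothelial gene against the mean of the other 7 (above the dashed line) and for the 10 genes most like the set against the mean of all 8 (below it); circles are the 38 rats of the furan experiment and squares the 32 rats of the 3-methylfuran experiment. Clec4g stands lowest with furan at 0.44 and Eng lowest with 3-methylfuran at 0.60.

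Other genes of the endothelium were read from lists chosen by name, and their counts are to be read against the 22.5% of all genes called lower at each top dose. Called higher were 3054 of 12727 genes at 2.0 mg/kg furan and 2527 of 11930 at 1.0 mg/kg 3-methylfuran. Of 15 further sinusoidal genes, 4 were called lower at 2.0 mg/kg furan and none higher, with a median of -0.33. Among them Bmp2, which signals iron status to hepatocytes, had -0.81 ± 0.22 (SE, adjusted p of 0.0033), the extracellular nuclease Dnase1l3 -0.55 ± 0.22 (SE, adjusted p of 0.040), and Rspo3, an enhancer of Wnt signalling, -0.50 ± 0.15 (SE, adjusted p of 0.0073). At 1.0 mg/kg 3-methylfuran 1 of 14 was called lower, Ehd3 (-0.31 ± 0.12, SE; adjusted p of 0.0343), with a median of -0.0049 over the list. Under total-count scaling none of this list was lower at either dose, with Bmp2 at -0.41 (adjusted p of 0.105) and Ehd3 at -0.057 (adjusted p of 0.718), while 1 was higher with furan and 5 with 3-methylfuran. Rats 081, 082, 083 and 085 had the highest myofibroblast sums at 2.0 mg/kg furan (given below), and few treated rats remain without them. Without rat 004 the number lower at that dose was 8, and without those 4 rats it was 0. All of these are edgeR's test.

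Of 24 further vascular endothelial genes, 5 were called lower and 3 higher at 2.0 mg/kg furan, and 2 of 21 lower at 1.0 mg/kg 3-methylfuran, shares lower that did not exceed the 22.5% over all genes. With total-count scaling 1 gene was lower and 7 higher with furan, and 1 lower and 3 higher with 3-methylfuran, and the calls of Egfl7 (-0.48, then -0.071), Vwf (-0.38, then 0.020) and Selp (-0.31, then -0.061) were lost. S1pr1, the receptor through which blood sphingosine 1-phosphate steadies endothelium, was lower at both. Its level ranged from 44.4 to 93.8 CPM at 2.0 mg/kg furan (median 76.8) against 93.98 to 131 in controls (median 123), and from 50.8 to 79.4 at 1.0 mg/kg 3-methylfuran (median 65.6) against 97.1 to 131 (median 116). The ranges did not overlap in either experiment, though the furan ranges nearly met. How many of all genes had ranges apart at these doses was not counted. The log2 fold changes were -0.75 ± 0.13 (SE, adjusted p of 9.05e-06) and -0.84 ± 0.080 (SE, adjusted p of 1.84e-10), and it was still called lower with total-count scaling at both. The genes called higher with furan were Mmrn1, Gja5 and Cd34, and none of these 3 was called in the rats that remained without 081, 082, 083 and 085.

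Of 14 endothelial transcription factors, 5 were called lower at 2.0 mg/kg furan. At 1.0 mg/kg 3-methylfuran 4 of 13 were lower and 1 was higher, against 22.5% of all genes called lower at each. With total-count scaling the numbers lower were 1 and 2. Bcl6b, a transcriptional repressor of endothelium, was lower at both, by -0.62 ± 0.14 (SE, adjusted p of 0.000291) and -0.79 ± 0.10 (SE, adjusted p of 1.56e-07). With total-count scaling it was called only at 1.0 mg/kg 3-methylfuran. Klf2, which responds to blood flow, was lower with furan (-0.80 ± 0.19, SE; adjusted p of 0.000771), and Sox7 and Sox18 were lower with 3-methylfuran (-1.60 ± 0.30 and -0.61 ± 0.18, SE). With total-count scaling Klf2 was -0.39 (adjusted p of 0.0951) and Sox18 -0.37 (adjusted p of 0.0714), neither called, and Sox7 was still called. Hhex, which hepatocytes also make, was lower with furan (-1.81) and higher with 3-methylfuran (0.91), and the difference of -2.72 ± 0.52 (SE) had an adjusted p of 0.000577 in edgeR's test.

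Vegfa, the ligand of Kdr and Flt1, was lower at both top doses. At 0.075 mg/kg 3-methylfuran, where 1.37% of all genes were called, Vegfa was also called lower (-0.22 ± 0.057, SE, adjusted p of 0.0348 in edgeR's test). At 0.5 mg/kg furan it was not called. It ranged from 143 to 218 CPM at 2.0 mg/kg furan (median 157) against 247 to 331 in controls (median 285), and from 165 to 194 at 1.0 mg/kg 3-methylfuran (median 183) against 255 to 330 (median 295). Ranges did not overlap in either experiment, and how many of all genes had ranges apart was not counted. The log2 fold changes were -0.74 ± 0.078 (SE, adjusted p of 1.32e-09) and -0.71 ± 0.057 (SE, adjusted p of 6.92e-12), and Vegfa was called lower with total-count scaling and DESeq2 at both doses, and at 2.0 mg/kg furan without rat 004 and without rats 081, 082, 083 and 085. Vegfb, which binds Flt1, was called lower with 3-methylfuran (-0.65 ± 0.099, SE) and was -0.092 ± 0.12 with furan, a difference of 0.55 ± 0.16 (SE) with an adjusted p of 0.0236 in edgeR's test. Over this list of VEGF and angiopoietin ligands and co-receptors 3 of 13 genes were lower and 2 higher at 2.0 mg/kg furan, and 4 of 12 lower and 2 higher at 1.0 mg/kg 3-methylfuran; with total-count scaling these became 2 lower and 7 higher, and 3 lower and 4 higher. Angptl4, an inhibitor of lipoprotein lipase, was lower at both (-1.41 ± 0.22 and -1.49 ± 0.28, SE).

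Among 19 genes of BMP and TGF-beta signalling at endothelium, the pathway Eng belongs to, 7 were called lower and 3 higher at 2.0 mg/kg furan. Bmp10, a circulating ligand of the receptor complex that Eng joins, was lower (-0.78 ± 0.18, SE), Id1 was higher (0.99 ± 0.25, SE) and the inhibitor Smad6 lower (-0.52 ± 0.17, SE). Id2 went the other way from Id1, lower at both top doses (-0.67 ± 0.16 and -0.39 ± 0.13, SE). Tgfb3 (1.27 ± 0.31, SE) and Tgfb2 (0.97 ± 0.23, SE) were higher with furan. Without rats 081, 082, 083 and 085 Bmp10, Id1 and Smad6 were not called, with Id1 at 0.39 (adjusted p of 0.362), and no gene of the list was called higher. With total-count scaling Smad6 was -0.12 (adjusted p of 0.534). At 0.5 mg/kg furan, where 3.16% of all genes were called, Smad6 was the 1 gene of the list called, lower (-0.60 ± 0.17, SE, adjusted p of 0.0472 in edgeR's test). At 0.075 mg/kg 3-methylfuran, where 1.37% were called, that 1 gene was Smad7, lower (-0.58 ± 0.13, SE, adjusted p of 0.0127 in edgeR's test). With 3-methylfuran at 1.0 mg/kg 6 of 18 were lower and 1 higher: Smad6 (-0.89 ± 0.19, SE), Smad7 (-0.58 ± 0.13, SE) and Acvr2b were lower and Id1 higher (0.62 ± 0.20, SE). With total-count scaling the furan counts turned to 9 higher and 1 lower and the 3-methylfuran counts to 4 higher and 2 lower, where Acvr2b lost its call, so the direction of this list as a whole depends on scaling. In the list of hyaluronan turnover, the ligand of Stab2 and Lyve1, 2 of 6 genes were called higher and 1 lower with furan; Hyal1, a hyaluronidase, was lower at both top doses (-0.71 ± 0.14 and -0.38 ± 0.11, SE). With total-count scaling Hyal1 was -0.35 with furan, still called, and -0.13 with 3-methylfuran (adjusted p of 0.349); without rats 081, 082, 083 and 085 it was -0.47 with furan (adjusted p of 0.0553). Of 6 genes of lymphatic endothelium, 3 were called higher at 2.0 mg/kg furan (Mmrn1, Pdpn and Ccl21) and none of 4 at 1.0 mg/kg 3-methylfuran. Without rats 081, 082, 083 and 085 none of the 3 was called, with Mmrn1 at 0.59, Pdpn at 0.44 and Ccl21 at 0.58.

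Markers of other cell types moved at the same doses. At 2.0 mg/kg furan 9 of 11 cholangiocyte genes were called higher and 1 lower, and the sum of the list ranged from 74.1 to 158 CPM against 62.4 to 83.3 in controls. No gene of that list was at 0 in every rat of either group. Of 8 myofibroblast and smooth muscle genes 6 were called higher, with a sum of 151 to 831 CPM against 133 to 265. In 4 of the 7 rats (081, 082, 083 and 085) that sum was 462 to 831 CPM, and in the other 3 it was 151 to 160. Hepatocyte genes were called lower in 10 of 12 and higher in 1, and their sum fell to between 120373 and 186366 CPM, from 198334 to 226817 in controls. With total-count scaling the ranges were 168893 to 194999 and 189237 to 202625, and 3 of the genes were called lower and 1 higher. With 3-methylfuran at 1.0 mg/kg 3 of 6 cholangiocyte genes were called higher and 1 lower, and none of 7 myofibroblast genes was called higher. Of 12 hepatocyte genes 8 were called lower and 2 higher there, or 3 lower and 3 higher with total-count scaling. Macrophage genes were called higher in 3 of 14 at 2.0 mg/kg furan and 1 of 13 at 1.0 mg/kg 3-methylfuran. Over all genes tested, 3054 of 12727 and 2527 of 11930 were called higher at these doses, and the macrophage shares did not exceed those. Of the 7 rats at 2.0 mg/kg furan, rats 081, 082, 083 and 085 also had the highest Col1a1, a gene of the myofibroblast list (86.1 to 186 CPM against 9.01 to 13.7). Leaving them out keeps 3 treated rats and takes away the rise of that list by choice of rats. Calls over all genes then fell to 1305 higher and 1300 lower, so a lost call is not read as a result. Without the 4 rats the furan counts of genes called higher were 5 of 11 for cholangiocytes and 0 for both myofibroblasts and macrophages, and 6 of 12 hepatocyte genes were lower. The part of these changes in the endothelial results was not tested. Without the 4 rats none of the 8 endothelial genes was called, with Kdr at -0.58 and Clec4g at -0.23; without the other 3, Clec4g was at -0.55 (adjusted p of 0.0086) and Kdr at -0.77 (adjusted p of 0.0535).

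In the authors' deposited table for furan at 2.0 mg/kg, Kdr has a signed fold change of -1.45 with an adjusted p of 0.0335 and Clec4g one of -1.29 with an adjusted p of 0.0164. In the authors' deposited table for 3-methylfuran at 1.0 mg/kg, Clec4g has a ratio of 0.676 with an adjusted p of 0.00197. No other gene of the 8 has an adjusted p under 0.05 in the authors' deposited tables at these doses. These 3 calls were the ones made here too.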

How the data were processed

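RNA-seq of liver from 70 rats gave 172 sequencing runs. The tools listed per the submitters' processing notes are DESeq2 1.26.0, featureCounts 2.0.0 and STAR 2.7.1a, with the build Rnor 6.0; strand and other settings are not given in the sources used here. Deposited by the authors were raw counts per gene and run, and tables with fold changes (a signed fold for furan, a plain ratio for 3-methylfuran) and adjusted p-values. Runs of a rat were summed: runs of 1 rat differed by a chi-square per degree of freedom of 0.986 to 1.07, rats of 1 group by at least 6.15. Each rat is a replicate, and p-values measure the spread between rats.

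With edgeR 4.0.16 in R 4.3.3, genes were filtered (filterByExpr, minimum count 10), scaled by TMM and tested in 1 quasi-likelihood fit per experiment, with Benjamini-Hochberg adjustment over all genes; scripts were tested on simulated data. Log2 CPM used a prior count of 2 for the correlations, and no prior count for the values relative to the other members. SE is the log2 fold change divided by the root of F. Depth was 11.08 to 50.05 M counts per rat. Alternatives were other scalings, no filter, DESeq2 1.42.0, 1 run, and leaving out rats; those without rat 004 (below 2.0 mg/kg, in the trend and in the difference) or without 086, 089 and 092 were added after seeing the data. All members are named. Genes named from other lists are among the called genes of largest change, at most 3 each way per list and dose, except Id2 with 3-methylfuran. The 10 genes most like the set come from the rule given in the text, over the 8 measured members. The members and 18 lists (212 of 233 symbols matched) were chosen with earlier results of these data known.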

Additional observations from a re-analysis of the deposited data

Results flagged for a closer look

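Of 72 combinations of gene and dose group examined, 4 had 1 rat far from the others of its group by Dixon's criterion, which chance meets in about 1 in 20 groups. Stab1 was 8.25 CPM in furan control rat 004, the rat that was lowest of the controls in all 8 genes. Clec4g was 23.3 CPM in 1 rat at 0.12 mg/kg furan, above the other 7. Lyve1 was 8.89 CPM in 1 rat at 0.02 mg/kg 3-methylfuran, below the other 7. Tek was 7.97 CPM in 1 rat of that same group, above the others.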

How the results depend on the processing

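The number of the 8 genes called at 2.0 mg/kg furan was 2, and 0 with total-count scaling, 1 with upper-quartile scaling, 1 with no low-count filter, 0 without rats 081, 082, 083 and 085, 1 without rats 086, 089 and 092, and 0 to 6 with 1 rat left out. With total-count scaling the median of the 8 was 0.033 and 9451 genes were called in all, and without rats 081, 082, 083 and 085 2605 were, against 5923. In the trends, 2 of the 8 were called for 3-methylfuran with total-count scaling and 3 for furan without rat 004; without that rat 1 was called in the difference between the top doses. At 1.0 mg/kg 3-methylfuran 1 gene was called in every fit with 1 rat left out; with total-count scaling it was Tek, higher, and not Clec4g.

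Signs turned with total-count scaling for Stab1 (0.074), Stab2 (0.16), Lyve1 (0.078) and Eng (0.16) at 2.0 mg/kg furan. They turned for Lyve1 (0.20), Kdr (0.19), Flt1 (0.015) and Eng (0.13) at 1.0 mg/kg 3-methylfuran, and for Stab1 (0.078) and Eng (0.026) in the difference between top doses. Lyve1 at 1.0 mg/kg 3-methylfuran was 0.046 with run 1 alone. With 1 rat left out it ran from -0.13 to 0.019, and Kdr at that dose from -0.12 to 0.036. Apart from the scaling and the rats left out, the cause of these shifts was not tested. With 8 or fewer rats a group, SEs of 0.11 to 0.28 at 2.0 mg/kg furan limit which changes could be called.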
